A study of Brassica napus with 8 samples.

Results

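Dry seed of rapeseed (Brassica napus, an oil crop whose genome joins an A and a C subgenome) was compared with young leaf of the same cultivar, Zhongshuang 11. The comparison is between the 4 of 8 polyA RNA libraries that are labelled dry seed (2 libraries) or young leaf (2 libraries). The other 4 libraries come from seed labelled 50 DPA and from seed after 48 h of germination. They entered the gene filter, the scaling and the estimate of spread behind the test. Apart from that, they show where genes that differ between dry seed and leaf stand elsewhere. No genotype, treatment or age beyond these names is labelled. Per the labels' protocols, which speak of tissues in general, vegetative tissues were grown in greenhouses and economically important organs on a farm. Read this way, leaf came from a greenhouse and dry seed from a farm, so tissue and place of growth cannot be told apart. No label ties the 2 libraries of a tissue to separate plants or harvests. The p-values then reflect library-to-library spread alone, and that spread may be technical.

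A dry seed is a desiccated, quiescent embryo with its coats and what is left of the endosperm. It carries stored messenger RNAs laid down during seed maturation, and transcripts for storage proteins, oil body proteins and desiccation-protective late embryogenesis abundant proteins are typical of it. A young leaf is a growing photosynthetic organ, where transcripts for nuclear-encoded photosynthesis proteins are typically among the most abundant. The gene IDs in the files carry no names, so none of these functions can be assigned to an ID here, and the labelled tissues could not be checked against marker genes.

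The dry seed libraries held 35418139 and 27635445 counts in total, and the young leaf libraries 35000319 and 36463920. Levels below are CPM, a count scaled to the size of its library, with TMM factors, a scaling built for data in which most genes keep their level. They are shares of a library, not amounts per cell, so fewer cells of a type and less RNA per cell cannot be told apart. The dry seed libraries differed more from each other than the leaf libraries did. Among genes of at least 1 CPM in both libraries, the median distance between the 2 libraries was 0.23 on the log2 scale in dry seed and 0.10 in young leaf. In dry seed 3.16% of these genes were more than 2-fold apart, against 0.1% in young leaf.

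The first question was how many genes differ between a seed at rest and a vegetative organ. In dry seed, 18185 genes were higher than in young leaf, which is 30.8% of the 59062 genes tested, and 27504 were lower, which is 46.6% (edgeR quasi-likelihood test, adjusted p under 0.05). Together 77.4% of the genes tested were called, so the premise of the TMM scale is in doubt and directions are relative to it. The falls were also deeper. With levels under the floor of 6 counts per library set to that floor, the median difference was 3.71-fold among the higher genes and 5.18-fold among the lower ones. The fitted medians were 4.03-fold and 13.8-fold, but 1408 of the higher genes had no count in leaf and 8495 of the lower genes had none in dry seed, and for these the fit gives no bound. The higher genes stood at a median of 16.6 CPM in dry seed and 3.90 CPM in young leaf, whereas the lower genes stood at a median of 0.369 CPM in dry seed and 5.93 CPM in young leaf. The median standard error of a log2 change was 0.19 for the higher genes and 0.43 for the lower ones. Genes that were higher thus lay mostly at levels well measured in both tissues, and genes that were lower often lay near the floor of dry seed, which is 0.221 CPM (6 counts per library, about 3 read pairs) against 0.137 CPM in leaf.

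Although fewer genes were higher, they held most of the dry seed library. They took 86.2% and 86.6% of the counts in the dry seed libraries, against 20.3% in each young leaf library. The lower genes took 7.76% ± 0.129 of the counts in dry seed and 71.6% ± 0.00792 in young leaf (SD, n = 2 each). The 13373 genes that were not called took 5.79% ± 0.117 in dry seed and 8.12% ± 0.0121 in young leaf. The calls were made on these same libraries, so these shares describe the sets. In the other tissues, the genes higher in dry seed took 78.7% ± 0.0379 of the counts of 50 DPA seed and 46.7% ± 0.222 of those of germinating seed. The genes lower in dry seed took 14.9% ± 0.0428 in 50 DPA seed and 39.3% ± 0.25 in germinating seed (SD, n = 2 each).

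**Figure D1:**
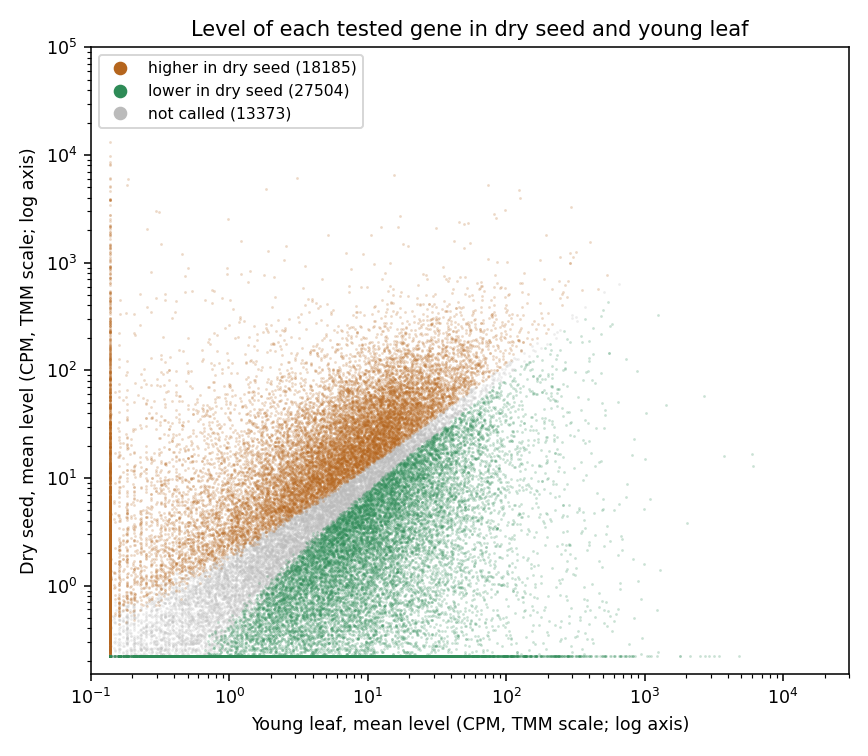
Mean level of each tested gene in dry seed (vertical axis) and young leaf (horizontal axis), in CPM on log axes, each point a gene, coloured by its call in edgeR's quasi-likelihood test. Levels under the floor of 6 counts per library are drawn at the floor (0.221 CPM in dry seed, 0.137 CPM in leaf), which gives the line of lower genes along the bottom and the line of higher genes along the left edge.

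Differences of 2-fold or more made up most calls in both directions, and falls outnumbered rises at all but the largest differences. On the same floored scale, 14581 of the higher genes and 22798 of the lower genes differed at least 2-fold. At least 16-fold differences were seen in 2586 higher genes (4.38% of the genes tested) and in 6530 lower genes (11.1%). At 100-fold the numbers were 775 higher and 1447 lower, and at 1000-fold the order turned, with 199 higher and 138 lower. The lowest level of a gene counted as 1000-fold higher was 138.3 CPM in dry seed, and that of a gene counted as 1000-fold lower was 221.7 CPM in leaf, so the floors favour the first number. With total counts alone as the scale, 159 genes were at least 1000-fold higher and 196 lower, so the order at this size is relative to the TMM scale.

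The 199 genes at least 1000-fold higher took 21.1% and 22.4% of the counts of the dry seed libraries. Their levels in dry seed ran from 138.3 to 13238 CPM, with a median of 467.7 CPM, and 114 of them had no count in either leaf library. In 50 DPA seed 188 of the 199 reached 1 CPM in both libraries and 156 had a mean of at least 100 CPM, with a median of 439 CPM. After 48 h of germination 115 still reached 1 CPM, at a median of 1.42 CPM. Of all 1762 genes on in dry seed at 100 CPM or more, 98.9% were on in 50 DPA seed and 92.2% in germinating seed. The genes furthest above leaf were thus on in 50 DPA seed no more often than abundant dry seed genes in general. In germinating seed they were on less often. No such share was taken for the level of 100 CPM in 50 DPA seed.

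The 138 genes at least 1000-fold lower took 10.4% ± 0.0283 of leaf counts (SD, n = 2), and 66 of them had no count in dry seed. Of these 138 genes, 92 reached 1 CPM in 50 DPA seed and 63 in germinating seed, with medians of 2.67 CPM and 0.782 CPM. Their low level in dry seed follows from the choice of genes. Among all 1003 genes on in leaf at 100 CPM or more, 829 were on in 50 DPA seed and 802 in germinating seed. The genes furthest below leaf were thus on less often in 50 DPA seed and in germinating seed than abundant leaf genes in general.

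The most abundant dry seed gene was ZS11A04G028590, with 12423 and 14054 CPM in the dry seed libraries, against 0 and 0.0448 CPM in the young leaf libraries. The leaf value is 2 counts in all, about 1 read pair, which puts the ratio of dry seed to leaf at 578580 with a 95% exact Poisson interval of 103844 to 22852685 that covers counting error only (edgeR adjusted p = 2.74e-13). With leaf set to the floor of 6 counts per library, as in the counts of fold changes above, the ratio is 96383. The fitted log2 change of 18.96 rests on these 2 counts, and was 18.06 without young leaf replicate 1 and 21.99 without young leaf replicate 2, where leaf has no count left and the fitted value is no bound. The libraries of the 2 tissues do not overlap, which holds for 86.5% of the genes tested. Its level was 24.1 ± 0.426 CPM in 50 DPA seed and 7.82 ± 0.120 CPM in germinating seed (SD, n = 2 each), both far under its lower dry seed library.

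ZS11C04G069800 had the largest fitted rise of the genes that the rule for naming admits, and was second in abundance in dry seed. It stood at 9226 and 10551 CPM in the dry seed libraries and had 0 counts in both young leaf libraries, at least 71995-fold higher against the leaf floor of 6 counts per library (edgeR adjusted p = 3.78e-13). In contrast to the previous gene it was already at 323.9 ± 4.74 CPM in 50 DPA seed, and it stood at 13.9 ± 1.19 CPM in germinating seed (SD, n = 2 each).

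In the other direction, ZS11A04G010630 had the largest fitted fall and was the third most abundant gene of leaf. It had 0 counts in both dry seed libraries, against 4856 and 4711 CPM in the young leaf libraries, at least 21636-fold lower against the dry seed floor (edgeR adjusted p = 5.45e-13). It was also near the floor in 50 DPA seed, at 0.298 and 0.516 CPM, and reached 17.9 and 15.9 CPM in germinating seed. ZS11C04G046750, the most abundant gene of leaf, did not vanish. It kept 12.8 CPM in each dry seed library, against 6029 and 6079 CPM in the young leaf libraries, a log2 change of -8.89 ± 0.10 (SE; edgeR adjusted p = 2.74e-13). Its level was 111.6 ± 1.36 CPM in 50 DPA seed and 53.2 ± 0.398 CPM in germinating seed (SD, n = 2 each). Reads shared by homoeologous or tandem copies may be split or lost in the counting, which no source describes, and single IDs are uncertain for that reason.

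On/off genes were counted next, as genes of at least 1 CPM in both libraries of a tissue and without a count in both libraries of the other. Genes on in dry seed numbered 32285 and genes on in young leaf 42077, and 28199 were on in both, which is 87.3% of the dry seed genes and 67.0% of the leaf genes. Of the genes on in dry seed, 732 had no count in leaf (2.27% of them, and 1.24% of the genes tested). Of the genes on in leaf, 4759 had no count in dry seed (11.3% of them, and 8.06% of the genes tested). Inside a tissue the same rule found few genes. In dry seed, 33 genes had no count in library 1 and at least 1 CPM in library 2, 35 had the reverse, and none of these exceeded 2.74 CPM. In young leaf no gene without a count in 1 library exceeded 1.21 CPM in the other. Leaf was read more deeply on this scale, since its floor of 0.137 CPM lies below that of dry seed (0.221 CPM). With a level under 0.25 CPM in both libraries counted as off in either tissue, a rule added after the data were seen, 1763 genes were on in dry seed alone and 6585 in leaf alone.

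The 2 on/off sets differed in number but took similar shares of their own tissue. The 732 dry seed genes took 12.7% and 13.2% of the counts in the dry seed libraries, and the 4759 leaf genes took 12.04% and 12.03% in the young leaf libraries. The dry seed set had a median level of 9.46 CPM in dry seed, and 357 of its genes had at least 10 CPM, 130 at least 100 CPM and 37 at least 1000 CPM. The leaf set had a median of 4.27 CPM in leaf, with 1335 genes at 10 CPM or more, 160 at 100 CPM or more and 8 at 1000 CPM or more. Of all 32285 genes on in dry seed, 16975 lay between 1 and 10 CPM and 1762 had at least 100 CPM. Of all 42077 genes on in leaf, 25234 lay between 1 and 10 CPM and 1003 had at least 100 CPM. The dry seed set was thus smaller and had the higher median level. The leaf set held more genes both at 10 CPM or more and at 100 CPM or more.

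The other tissues separated the 2 sets. Of the 732 dry seed genes, 63.1% (462) were on in 50 DPA seed and 22.3% (163) in germinating seed, against 90.5% and 88.3% of all 32285 genes on in dry seed. Of the 4759 leaf genes, 15.6% (741) were on in 50 DPA seed and 39.9% (1899) in germinating seed, against 76.2% and 83.3% of all 42077 genes on in leaf. On in neither of these tissues were 231 genes of the dry seed set and 2538 of the leaf set, and 16 and 394 genes had no count there at all. Among the 130 dry seed genes of at least 100 CPM, 124 were on in 50 DPA seed, at a median of 485.9 CPM, and 61 in germinating seed, at a median of 1.07 CPM. These are 95.4% and 46.9%, against 98.9% and 92.2% of all 1762 genes on in dry seed at that level, so the share on in 50 DPA seed is near that of all such genes. Among the 160 leaf genes of at least 100 CPM, 64 were on in 50 DPA seed and 79 in germinating seed, at medians of 0.540 and 1.09 CPM, and 40 had at least 10 CPM in germinating seed. These counts are 40.0% and 49.4% of the set, whereas of all 1003 genes on in leaf at that level 829 (50 DPA seed) and 802 (germinating seed) were on.

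**Figure D2:**
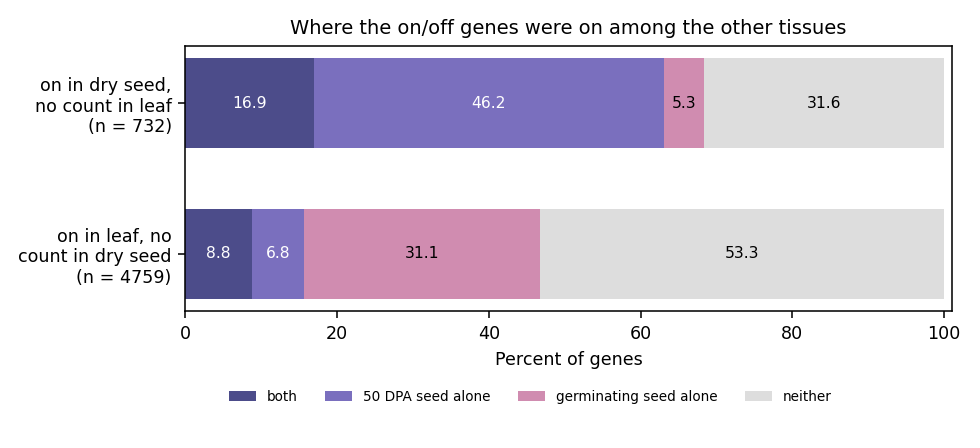
Percent of the genes on in dry seed and without counts in leaf (upper bar) and of the genes on in leaf and without counts in dry seed (lower bar) that reached 1 CPM in both libraries of 50 DPA seed, of germinating seed, of both or of neither. The largest part of the upper bar is 50 DPA seed alone (46.2%), and the largest part of the lower bar is neither (53.3%).

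The next question was which abundant transcripts of each tissue persist in the other. Persistence differed with the level. Of the 13548 genes between 10 and 100 CPM in dry seed, 1.7% had no count in leaf and 55.7% had at least 10 CPM there. Of the 1662 genes between 100 and 1000 CPM in dry seed, 5.6% had no count in leaf and 71.4% had at least 10 CPM. Of the 100 genes of at least 1000 CPM in dry seed, 37 had no count in leaf, 22 stood below 1 CPM and 12 kept at least 100 CPM. Leaf genes without a count in dry seed made up 13.6% of the 25234 genes between 1 and 10 CPM in leaf and 7.4% of the 15840 genes between 10 and 100 CPM. They made up 15.6% of the 977 genes between 100 and 1000 CPM and 30.8% (8 genes) of the 26 genes of at least 1000 CPM. The share of leaf genes with at least 10 CPM in dry seed was 52.6%, 43.2% and 30.8% in the last 3 bands. The genes were sorted by their level in 1 tissue, which by itself makes the other tissue look lower, so the direction of these differences is not independent evidence.

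**Figure D3:**
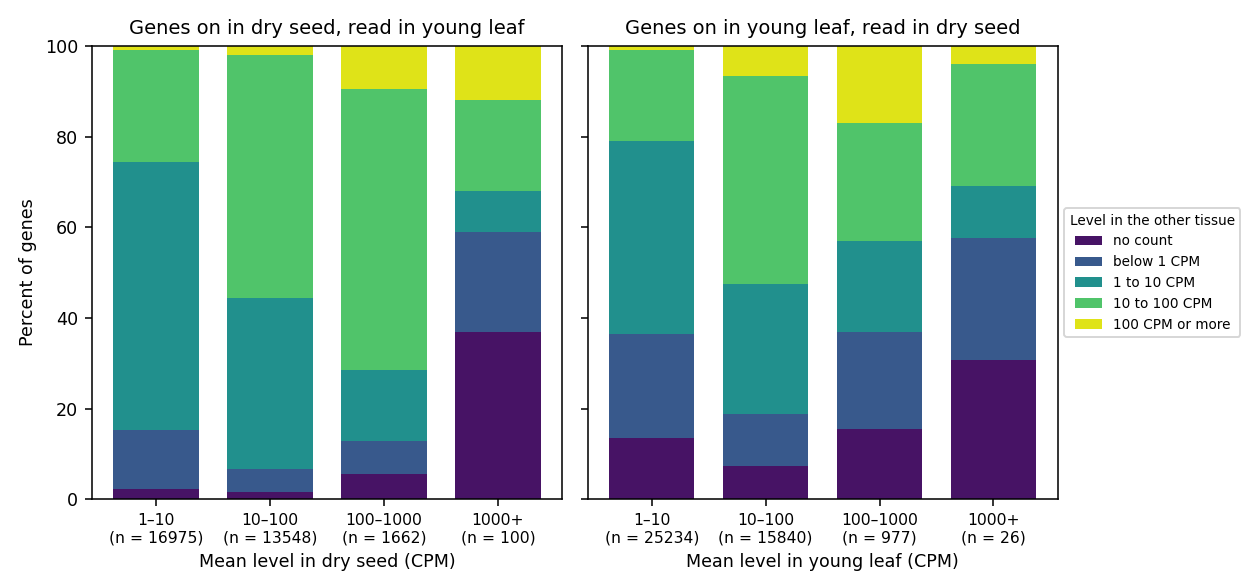
Percent of genes at each level in the other tissue (colours) for genes on in dry seed (left panel) and on in young leaf (right panel), in bands of their mean level in CPM; n is the number of genes in a band. In the band of 1000 CPM or more, 37.0% of the dry seed genes had no count in leaf and 30.8% of the leaf genes had none in dry seed.

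The list of the 100 top genes in dry seed, which are those of at least 1001 CPM, took 23.4% and 24.8% of the counts of the dry seed libraries, but 0.467% and 0.471% of those of the young leaf libraries. All 100 were higher in dry seed, against 30.8% of all genes tested, as the choice of genes makes likely. Their median level was 1989 CPM in dry seed and 0.138 CPM in young leaf, and 62 kept less than 0.1% of their dry seed level in leaf. The 12 genes that kept at least 100 CPM in leaf stood between 101.8 and 403.5 CPM there and between 1001 and 4688 CPM in dry seed. All 12 were on in both other tissues, and 11 had at least 100 CPM in 50 DPA seed and 11 in germinating seed. Of the whole list, 92 genes had at least 100 CPM in 50 DPA seed and 21 did in germinating seed. The medians of the list were 906.1 CPM and 6.07 CPM there. No such share was taken over all abundant dry seed genes, so these counts are not read as high or low.

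The 100 most abundant genes of young leaf, which are those of at least 505.8 CPM, took 0.331% and 0.316% of the counts of the dry seed libraries, against 13.4% and 13.3% of those of the young leaf libraries. In dry seed 98 of them were lower, against 46.6% of all genes tested, as the choice of genes makes likely. Only 1 was higher, against 30.8% of all genes tested, and ZS11A03G057020, described further on, was not called. The median level of the list was 0.563 CPM in dry seed and 725.8 CPM in young leaf, and 53 genes kept less than 0.1% of their leaf level. Of the 100 genes, 19 had no count in dry seed, against 37 of the dry seed list without a count in leaf. The 9 genes that kept at least 100 CPM in dry seed stood between 128.4 and 763.3 CPM there and between 536.2 and 1245 CPM in leaf. In 50 DPA seed the leaf list had a median of 7.21 CPM, and in germinating seed of 3.18 CPM. Of the leaf list, 13 genes had at least 100 CPM in 50 DPA seed and 11 in germinating seed. No such share was taken over all abundant leaf genes. The 2 lists of 100 share no gene. Lists of 1000 share 116 genes (11.6%), and lists of 5000 share 1442 (28.8%). The overlap of unrelated lists was not computed. Among 59062 genes tested, unrelated lists of 100 could also share no gene, so these counts are not read as a separation of the tissues.

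**Figure D4:**
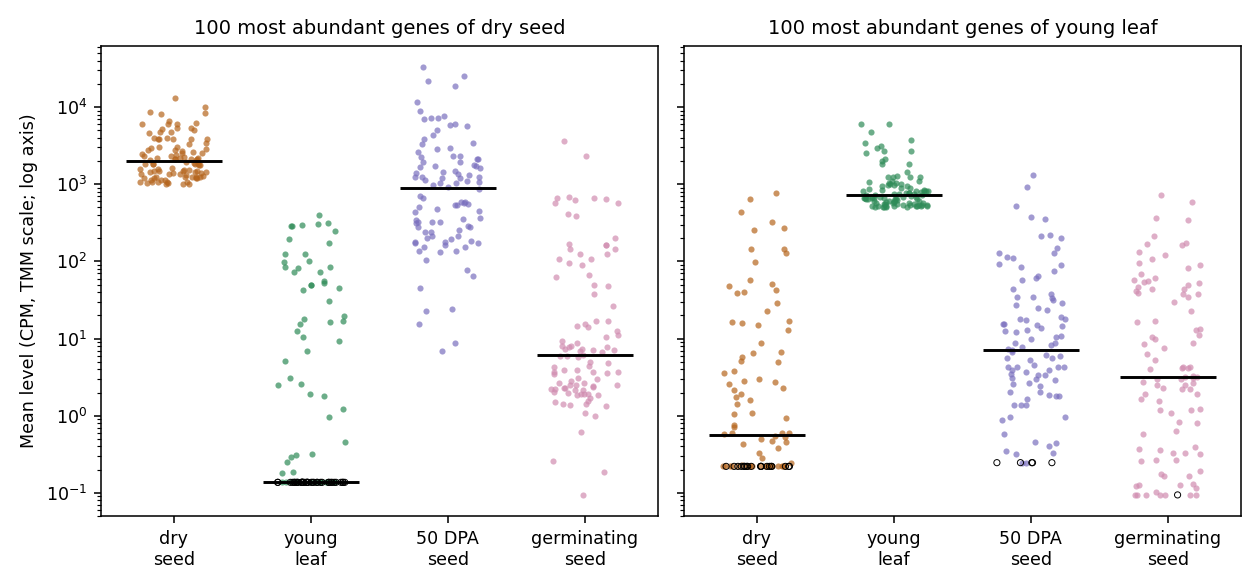
Mean level in CPM (log axis), in each tissue, of the 100 top genes in dry seed (left panel) and in young leaf (right panel); points are genes, lines are medians, and open circles are genes without counts, drawn at the floor of 6 counts per library. The dry seed list has medians of 906.1 CPM in 50 DPA seed, 6.07 CPM in germinating seed and 0.138 CPM in leaf. The leaf list has medians of 0.563 CPM in dry seed, 7.21 CPM in 50 DPA seed and 3.18 CPM in germinating seed.

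Genes abundant in both tissues were counted as well. The number that unrelated levels would give among the 59062 genes tested was not computed, so the count is not read as small or large. At least 100 CPM in both libraries was reached by 1657 genes in dry seed and 984 in young leaf, and 155 genes reached it in both, which is 9.35% of the dry seed genes and 15.8% of the leaf genes. These 155 genes took 5.31% ± 0.0744 of the counts in dry seed and 4.28% ± 0.0379 in young leaf (SD, n = 2 each). Of them, 83 (53.5%) were higher in dry seed, 43 (27.7%) lower and 29 (18.7%) not called, where all genes tested gave 30.8% higher and 46.6% lower. Their median log2 change was 0.27, against -0.59 over all genes tested, and 104 of them (67.1%) lay within 2-fold, against 34.9% of all genes tested. With total counts alone as the scale 55 of the 155 were higher and 79 lower, at a median log2 change of -0.21, so the balance of these genes turned with the scale. The rule asks for a high level in both tissues, which by itself favours small differences. All 155 were on in 50 DPA seed and in germinating seed, and 81 had at least 100 CPM in every library of all 4 tissues.

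The most abundant genes without a call were ZS11A03G057020 and ZS11C03G017210. ZS11A03G057020 had 666.8 and 613.1 CPM in the dry seed libraries, against 677.5 and 636.0 CPM in the young leaf libraries, a log2 change of -0.04 ± 0.08 (SE; edgeR adjusted p = 0.693). The libraries of the 2 tissues overlap, and an interval of 2 SE runs from -0.20 to 0.12. This gene was not level across the series, at 31.9 ± 1.49 CPM in 50 DPA seed and 734.4 ± 20.8 CPM in germinating seed (SD, n = 2 each). ZS11C03G017210 had 547.4 and 513.4 CPM in the dry seed libraries, against 520.5 and 490.7 CPM in the young leaf libraries, a log2 change of 0.07 ± 0.08 (SE; edgeR adjusted p = 0.437). Its interval of 2 SE runs from -0.09 to 0.23, and it stood at 490.8 ± 8.07 CPM in 50 DPA seed and 95.8 ± 4.50 CPM in germinating seed. With total counts alone as the scale both genes were called lower in dry seed, at log2 changes of -0.52 and -0.41 (edgeR adjusted p = 7.88e-05 and 0.000384), so their balance is relative to the TMM scale. Of the 13373 genes not called, 4777 (35.7%) had a log2 change that stayed within 1 of 0 with 2 SE. For the rest the interval reached further or was undefined. The formula for the standard error gives no usable value at a log2 change of 0, which was the median of the genes not called.

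Gene IDs carry a chromosome prefix, A01 to A10 or C01 to C09, which gives the subgenome. Of the genes tested with an A prefix, 32.0% (8825 of 27589) were higher in dry seed and 46.0% lower, and with a C prefix 29.7% (9327 of 31359) were higher and 47.1% lower. By chromosome the higher share was 32.0% ± 1.69 (SD, 10 prefixes) for A and 29.7% ± 1.74 (SD, 9 prefixes) for C. It ran from 26.4% on C02 to 35.3% on A10, and A10 also had the smallest lower share (41.8%). A-prefix genes took 50.6% and 50.7% of the counts in the dry seed libraries, against 49.1% in each young leaf library, so the libraries of the 2 tissues do not overlap. The difference of 1.56 percentage points exceeds the spread between libraries, but with 2 against 2 libraries the exact 2-sided permutation p is 0.333, the smallest the design allows. In the other tissues the A share was 49.03% ± 0.0146 in 50 DPA seed and 50.9% ± 0.010 in germinating seed (SD, n = 2 each).

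**Figure D5:**
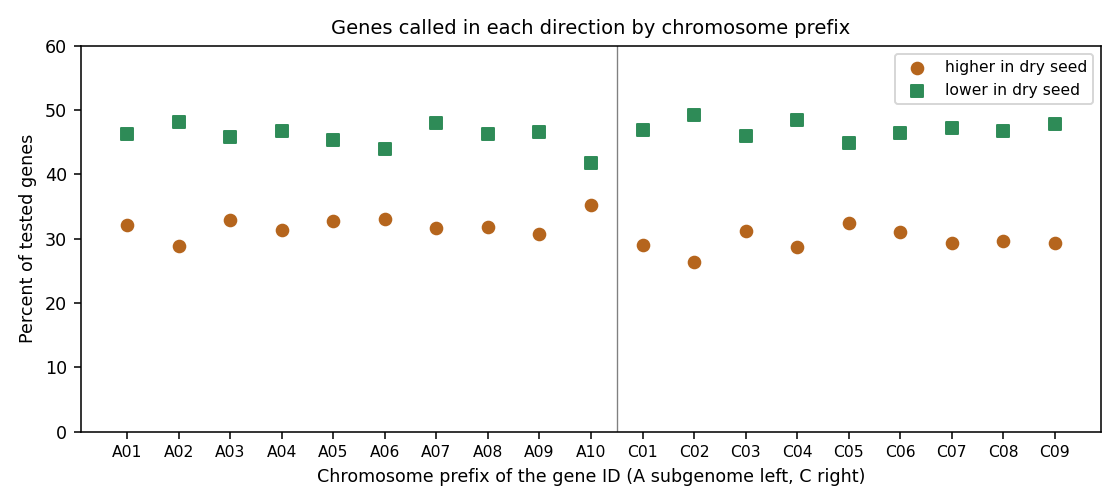
Percent of tested genes called higher (circles) and lower (squares) in dry seed than in young leaf, by chromosome prefix of the gene ID. The lower share exceeds the higher share under each of the 19 prefixes, from 41.8% against 35.3% on A10 to 49.2% against 26.4% on C02.

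IDs numbered 10 apart under a prefix are neighbours in the numbering. Of the dry seed on/off genes with a chromosome prefix, 47 of 728 (6.5%) had a neighbour in the same set, against 1.78% of the other genes on in dry seed. Of the leaf on/off genes, 746 of 4751 (15.7%) had one, against 8.7% of the other genes on in leaf. Neighbouring IDs can be copies that share reads, so these genes are not independent of each other.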

How the data were processed

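Transcripts were measured in 8 libraries of rapeseed, 2 per tissue. The authors deposited whole-number counts per gene (106059 IDs) and a normalized signal, whose TMM scaling is named by its table. The tools named in the submitters' processing notes are HISAT2, SAMtools, FastQC and edgeR. Per the file headers, alignment files carried the mark Q30. Tool versions, the counter, the build and the gene models are not given in the sources used. A line without a gene was dropped (1 of 106060). Between 80.5% and 85.4% of the values above 0 were even per library, as when both mates of a pair are counted, so 6 counts were taken as 3 read pairs and used as the floor per library.

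Genes were filtered with filterByExpr over all 8 libraries (59062 kept), scaled by TMM and tested with edgeR 4.0.16 in R 4.3.3 (quasi-likelihood, robust, 1 mean per tissue). The test was 2-sided, p-values were adjusted by Benjamini-Hochberg across every tested gene, and calls were made under 0.05. Standard errors are the log2 change over the square root of F. DESeq2 1.42.0 and limma 3.58.1 (on the deposited signal with pseudocounts of 0.5 and 2) served as alternatives. The test function was checked on simulated counts in which few, well-counted genes were changed and the rest kept their level. That check does not cover data in which most genes are called, as here. Counts and levels bear on 2 libraries per tissue only, and floors and the Poisson interval cover counting error only, whereas standard errors include the spread between libraries.

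No file links an ID to a name, and 0 of the IDs matched the RefSeq gene table (assembly Da-Ae). Lists by product name and tissue markers were therefore not applied. IDs were chosen by rule: per direction, the largest log2 change among genes of at least 50 CPM whose libraries did not overlap, and the most abundant gene called, plus the 2 most abundant genes not called. The members and rules were chosen with earlier results of these data known. Same-numbered libraries of the 2 tissues deviated from their tissue means with a correlation of 0.0077 across genes. No pairing by number is seen in this value. A pairing that leaves no shared deviation across genes would not show in it, so it cannot exclude one.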

Additional observations from a re-analysis of the deposited data

How the results depend on the processing

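The counts of genes higher (18185) and lower (27504) in dry seed stayed within 1.5 times of themselves under all 16 alternatives run, at 12684 to 19221 and 22184 to 31529. With each library left out in turn there were 15997 to 18313 higher and 24635 to 27684 lower genes. With total counts alone the median log2 change of all genes tested moved from -0.59 to -1.07 and 81.4% of the higher genes were called again. Fitted on the dry seed and young leaf libraries only, 53899 genes were tested, of which 17468 were higher and 25748 lower in dry seed. With the replicate block, 17520 genes were higher and 26626 lower, and whether the numbers pair libraries is not known. From 5 CPM, on/off genes numbered 418 in dry seed and 2090 in leaf. With under 6 counts as off, 1310 were on in dry seed alone and 6271 in leaf alone. With under 0.25 CPM as off, these were 1763 and 6585. Leaving out 1 library gave 798 to 940 and 4997 to 5994 on/off genes. The 100 most abundant dry seed genes took 0.469% of leaf counts; ranked on library 2 alone, 0.440%, with 50 genes 0.138%, with 200 genes 1.264%, and with 1 library left out 0.440% to 0.471%. The leaf list took 0.323% of dry seed counts; ranked on library 1 alone, 0.402%, with 50 genes 0.0733%, with 200 genes 0.937%, and with 1 library left out 0.316% to 0.402%. Genes of at least 50 CPM in both tissues numbered 683, and of at least 200 CPM, 43, by construction. Leaving out 1 library gave 159 to 163 genes of 100 CPM and an A share 1.48 to 1.65 percentage points above leaf; without the 100 most abundant genes of each tissue this was 1.32. The 4 named genes that were called kept direction and call in all 16 fits. ZS11A03G057020 turned to 0.10 with upper-quartile factors and 0.012 without dry seed replicate 2, not called either time (-0.091 to 0.012 over single omissions), and ZS11C03G017210 was at -0.41 with total counts alone and called higher at 0.21 with upper-quartile factors (edgeR adjusted p = 0.024). A tissue left with 1 library was taken to be as variable as the rest. The fit without robust estimation and the limit of 0.25 CPM were chosen after the data were seen. Lists by product name could not be run without names.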
